A study of Mus musculus with 2 samples.

Results

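The 4 Hox genes of paralog group 13, Hoxa13, Hoxb13, Hoxc13 and Hoxd13, were followed through single-cell RNA counts of Sox1-GFP+ cells from mouse tail and mouse brain. They were taken by symbol and are 4 of the 37 Hox genes and of the 19608 genes in the files. The tail group was 1 library of postnatal tail cells and the brain group 1 library of adult brain cells, the ages as the study's methods give them. Both came from mice carrying a GFP reporter of Sox1, a gene of the neuroepithelium. Cells were freed with trypsin, sorted by flow cytometry for GFP and captured with the BD Rhapsody system, which tags each captured poly(A) RNA molecule so that PCR copies count once. The labels give no treatment beyond the sort, no sex and no number of animals. Tissue, age and library differ together between the groups and cannot be told apart. Cells from 1 library are not replicates, so no test was run, and every 95% interval below covers counting error only.

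Hox genes encode transcription factors that bind DNA through a homeodomain, and they lie in 4 clusters whose order along the chromosome matches the order in which they are used along the body. Group 13 genes sit at the 5′ end of their clusters, are switched on last, and mark the hind end of the axis. Hoxa13 and Hoxd13 pattern digits and the urogenital tract, Hoxb13 restrains growth of the caudal spinal cord and tail vertebrae, and Hoxc13 is needed for hair and nails.

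All 4 genes had the same layout on GRCm38 in GENCODE vM21, with 2 exons and the homeobox wholly within exon 2. Hoxa13 (ENSMUSG00000038203) is on chr6:52257694-52260880, minus strand, with its homeobox at chr6:52258928-52259107. Hoxb13 (ENSMUSG00000049604) is on chr11:96194316-96197447, plus strand, with its homeobox at chr11:96196020-96196199. Hoxc13 (ENSMUSG00000001655) is on chr15:102921103-102928814, plus strand, with its homeobox at chr15:102927210-102927389. Hoxd13 (ENSMUSG00000001819) is on chr2:74668310-74671599, plus strand, with its homeobox at chr2:74669930-74670109. The homeobox, 180 coding bases for 60 residues, is shown because it is what makes these genes a family and where reads could be shared between them. Capitals mark the bases that are not alike in all 4 genes, read 5′ to 3′ on the coding strand.
Hoxa13: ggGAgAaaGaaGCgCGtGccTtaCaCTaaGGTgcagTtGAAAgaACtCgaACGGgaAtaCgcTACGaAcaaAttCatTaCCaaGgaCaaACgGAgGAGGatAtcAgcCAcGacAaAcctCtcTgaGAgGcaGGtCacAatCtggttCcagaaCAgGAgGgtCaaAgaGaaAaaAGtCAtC
Hoxb13: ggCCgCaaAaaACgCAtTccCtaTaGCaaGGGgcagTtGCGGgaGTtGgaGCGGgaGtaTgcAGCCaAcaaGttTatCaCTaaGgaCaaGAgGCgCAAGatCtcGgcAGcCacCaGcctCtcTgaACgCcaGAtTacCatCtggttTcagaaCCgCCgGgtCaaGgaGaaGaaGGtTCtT
Hoxc13: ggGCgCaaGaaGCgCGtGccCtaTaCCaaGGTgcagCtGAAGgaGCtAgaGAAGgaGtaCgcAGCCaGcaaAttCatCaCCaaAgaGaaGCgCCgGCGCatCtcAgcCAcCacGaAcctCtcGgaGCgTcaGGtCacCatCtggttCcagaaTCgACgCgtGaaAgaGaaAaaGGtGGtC
Hoxd13: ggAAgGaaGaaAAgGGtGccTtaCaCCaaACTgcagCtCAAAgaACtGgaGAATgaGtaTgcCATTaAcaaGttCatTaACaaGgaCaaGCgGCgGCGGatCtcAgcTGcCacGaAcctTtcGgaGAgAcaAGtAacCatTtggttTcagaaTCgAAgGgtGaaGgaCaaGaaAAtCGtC
The 4 homeoboxes shared 98 of 180 bases and 44 of 60 residues. Hoxa13 and Hoxc13 were closest, alike at 139 bases (77.2%) and 55 residues (91.7%). Hoxb13 and Hoxd13 were farthest apart, alike at 121 bases (67.2%) and 47 residues (78.3%). The homeoboxes end between 1234 and 1490 bases before the transcript ends at which the assay captures RNA.

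A barcode counted as a cell if it had over 200 but under 4000 genes and less than 40% of its molecules from mitochondrial genes, which left 1964 of 2469 tail barcodes and 7988 of 12111 brain barcodes. Kept cells carried 2817103 molecules in the tail, with a median of 1282.5 per cell, and 6424466 in the brain, with a median of 696. The libraries shared 29 barcodes, 18 of them among kept cells. Levels are given as CPM, molecules per 1000000 molecules summed over kept cells. Sox1 itself, the gene of the reporter, had a molecule in 9.78% of the cells from tail and 8.45% of those from brain.

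Hoxb13 was the most abundant member in the tail, followed by Hoxc13, Hoxa13 and Hoxd13. Hoxb13 had 814 molecules in the tail, a level of 289 CPM (269 to 310), and made up 65.2% of all group 13 molecules. Hoxc13 had 259 molecules and a level of 91.9 CPM (81.1 to 104). Hoxa13 had 152 molecules and a level of 54.0 CPM (45.7 to 63.2). Hoxd13 had 23 molecules and a level of 8.16 CPM (5.18 to 12.3). None of these intervals overlapped, and the order held per length of the longest coding transcript, with levels of 131, 37.4, 22.5 and 3.29 CPM per kb. Each molecule rested on few reads, between 1.24 and 1.27 for each gene, near the 1.25 of the whole tail file.

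The brain library held almost none of these RNAs. Hoxa13 and Hoxb13 had 0 molecules there, which allows a level of up to 0.467 CPM at 3 molecules, so the tail level was at least 116-fold higher for Hoxa13 and at least 619-fold higher for Hoxb13. Hoxc13 had 5 brain molecules, 1 in each of 5 cells, and the tail level was 118-fold higher (49.97 to 367). Hoxd13 had 3 brain molecules, all in 1 cell, and the tail level was 17.5-fold higher (5.28 to 91.0). That cell had 45 molecules of the collagen gene Col1a1, 6 of the 6 fibroblast markers and 3 molecules of other Hox genes. None of the 6 brain cells with a member had a barcode that also occurred in the tail file. Of the 3 members with at least 50 molecules over both libraries, 3 were at least 4-fold higher in the tail, against 8.41% of the 11360 genes with as many molecules. Hoxd13, with too few molecules for that rule, is not in this count. The 3 counted reached the minimum through their tail molecules, so the call largely followed from the filter and adds no separate support.

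**Figure D1:**
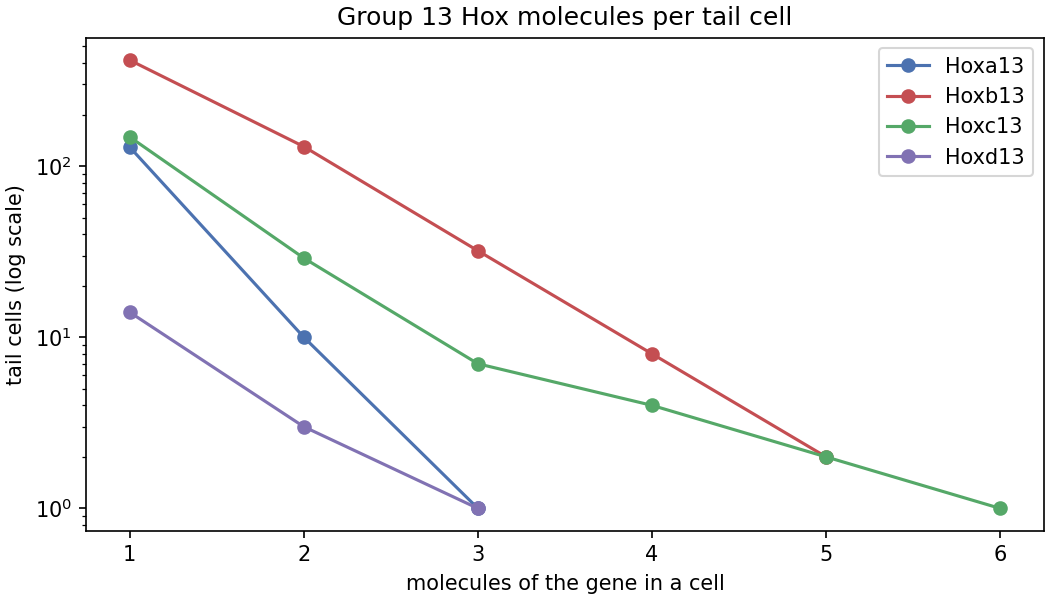
Number of tail cells (log axis) that held 1 to 6 molecules of each gene, with 1 line per gene. Most positive cells held 1 molecule, and only Hoxb13 and Hoxc13 reached 4 or more.

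Most positive cells held a single molecule. Hoxb13 was found in 588 of 1964 tail cells, with 1 molecule in 416, 2 in 130, 3 in 32, 4 in 8 and 5 in 2. Hoxc13 was found in 191 cells, with 1 molecule in 148 and a maximum of 6. Hoxa13 was found in 140 cells, with 1 molecule in 129 and a maximum of 3. Hoxd13 was found in 18 cells, with 1 molecule in 14 and a maximum of 3. Cells with Hoxd13 were deep, with a median of 2190.5 molecules against 1278 in the others. To put cells at 1 depth, each was thinned at random to 400 molecules, which left out 19 tail cells and 718 brain cells. At that depth Hoxb13 was found in 12.3% of tail cells (10.9 to 13.9; 29.9% unthinned), Hoxc13 in 3.86% (3.04 to 4.81; 9.73% unthinned) and Hoxa13 in 2.67% (2.003 to 3.49; 7.13% unthinned). Hoxd13 was found in 0.154% (0.0318 to 0.450; 0.916% unthinned). At the same depth 3 of 7270 thinned brain cells, 0.0413%, held a member, in each case Hoxc13.

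The tail cells were then divided by 6 marker genes. A cell with at least 2 molecules of exactly 1 of Col1a1, Krt5, Tmem212, Pkd2l1 and Robo3 was given to that gene. A cell with at least 2 molecules of Igfbp5 and fewer than 2 of each of those 5 was called an Igfbp5 cell. Col1a1 encodes a fibroblast collagen and Krt5 a keratin of basal keratinocytes. Tmem212 is a gene of multiciliated ependymal cells, and Pkd2l1 encodes a channel of neurons that contact cerebrospinal fluid (CSF). Robo3 encodes an axon guidance receptor of young commissural neurons, and Igfbp5 an insulin-like growth factor binding protein. This gave 176 Col1a1 cells, 81 Krt5 cells, 37 Tmem212 cells, 68 Pkd2l1 cells, 49 Robo3 cells and 1148 Igfbp5 cells. It left 404 remaining cells and 1 cell with 2 of the markers.

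Other markers went with 5 of these names. Each marker list includes its defining gene, which every cell of the kind held by rule. A share for a kind's own list therefore asks for only 1 further gene. At least 2 genes of the own list, counting the defining gene, were found in 98.9% of Col1a1 cells (fibroblast-like), 98.8% of Krt5 cells (keratinocyte-like) and 97.3% of Tmem212 cells (multiciliated ependymal-like). The same held for 89.7% of Pkd2l1 cells (CSF-contacting neuron-like) and 93.9% of Robo3 cells (Robo3 immature neuron-like). In Robo3 cells the further gene was mostly Nhlh2 (89.8% of cells) or Nhlh1 (51.0%). Of the other listed genes, Neurod1 was in 18.4% of Robo3 cells, Dcc in 4.08% and Neurod4 in none. Igfbp5 cells are called by their gene only. Of these, 95.8% held 2 genes of a progenitor list that includes Vim and Sox2, but so did 63.6% of Col1a1 cells, and 14.9% held 2 multiciliated genes. Krt5 cells were not free of fibroblast genes, since 35.8% held 2 or more, led by Dcn in 66.7%. Sox1 was found in 58.8% of Pkd2l1 cells, 7.93% of Igfbp5 cells and 0.568% of Col1a1 cells, and in no Krt5 or Robo3 cell. The cut of 2 molecules mattered most for Tmem212, where 32 cells had exactly 1 molecule and 19 exactly 2. Median depth ran from 1168.5 molecules in Igfbp5 cells to 2111 in Krt5 cells.

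**Figure D2:**
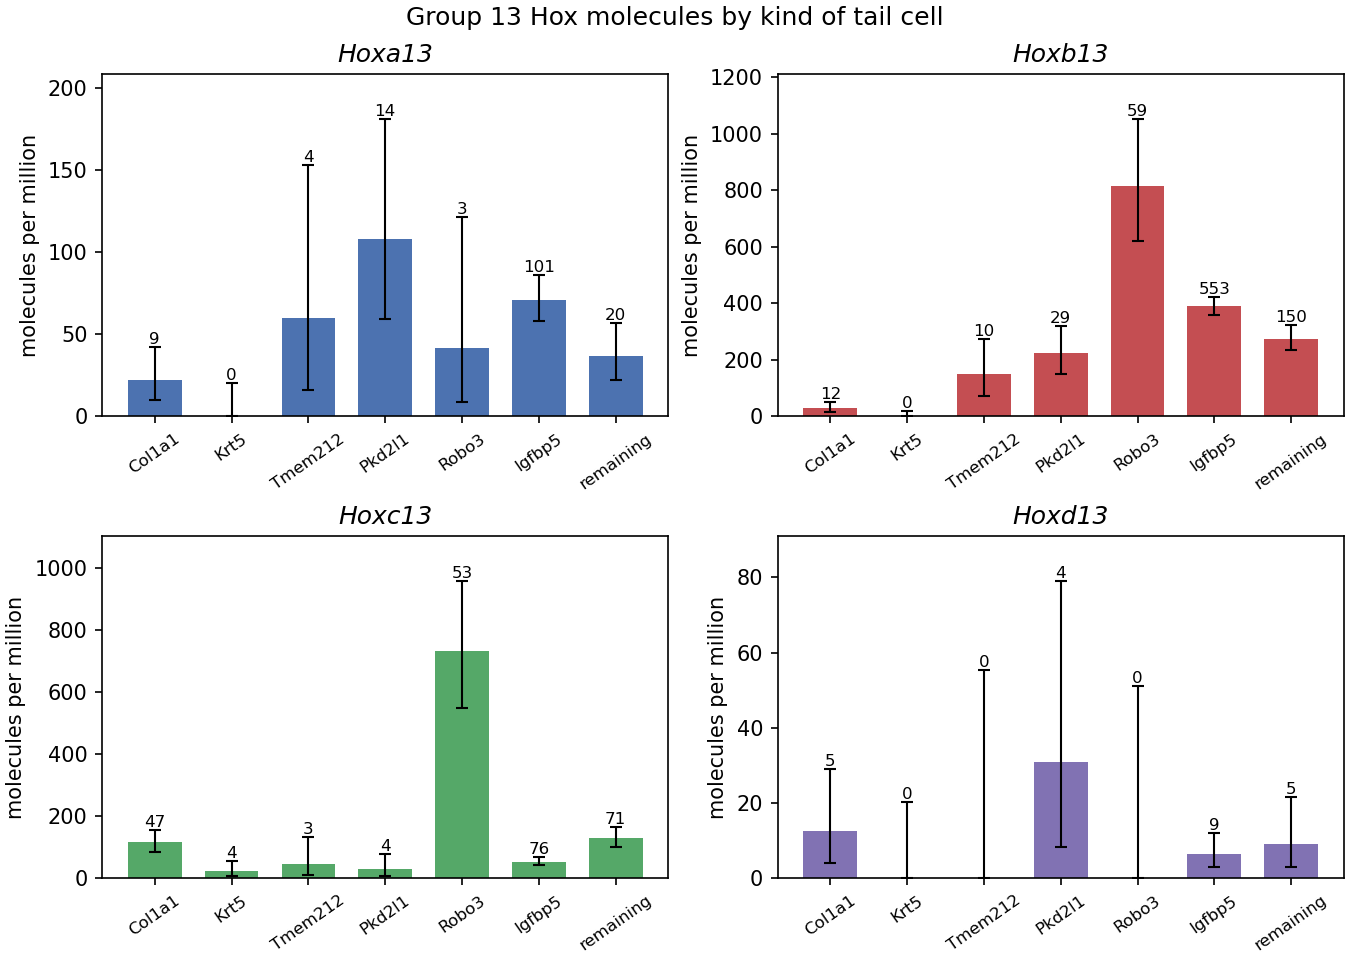
Level of each gene in CPM (bars, with exact Poisson 95% intervals, each panel with its own axis) in 6 kinds of tail cell and the remaining cells, with the number of molecules above each bar. Hoxb13 and Hoxc13 were highest in Robo3 cells, Hoxa13 reached 108 CPM in Pkd2l1 cells, and Krt5 cells held molecules of Hoxc13 only.

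Hoxb13 was higher in the Robo3 and Igfbp5 cells than in the Col1a1 and Krt5 cells. Its level was 817 CPM (622 to 1053) in Robo3 cells, 390 CPM (358 to 424) in Igfbp5 cells, 276 CPM (234 to 324) in remaining cells, 224 CPM (150 to 322) in Pkd2l1 cells and 150 CPM (71.8 to 275) in Tmem212 cells. It was 29.8 CPM (15.4 to 52.1) in Col1a1 cells, and Krt5 cells had 0 molecules among 182830. Robo3 cells were 2.09-fold above Igfbp5 cells (1.57 to 2.74), and Igfbp5 cells 1.41-fold above remaining cells (1.18 to 1.70). Remaining and Pkd2l1 cells could not be told apart by counting error (1.23-fold, 0.823 to 1.90), nor could Pkd2l1 and Tmem212 cells (1.496-fold, 0.709 to 3.44). Against all other tail cells, Hoxb13 was 11.1-fold lower in Col1a1 cells (6.34 to 21.6) and at least 18.8-fold lower in Krt5 cells, although both kinds were deeper than the rest. A Col1a1 cut of 1 molecule raised its level there to 53.9 CPM, and choosing keratinocyte-like cells by 2 marker genes gave 15.0 CPM in place of 0.

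As shares of cells, Hoxb13 was found in 35 of 49 Robo3 cells (71.4%, 56.7 to 83.4), 403 of 1148 Igfbp5 cells (35.1%) and 26 of 68 Pkd2l1 cells (38.2%). It was found in 9 of 37 Tmem212 cells (24.3%), 10 of 176 Col1a1 cells (5.68%) and 0 of 81 Krt5 cells, which allows a share of up to 3.70%. At 400 molecules per cell the shares were 26.5% (15.0 to 41.1) in Robo3 cells, 14.9% (12.9 to 17.1) in Igfbp5 cells, 10.3% (4.24 to 20.1) in Pkd2l1 cells, 8.11% (1.70 to 21.9) in Tmem212 cells and 2.27% (0.623 to 5.72) in Col1a1 cells. The order of Robo3 above Igfbp5 above Col1a1 cells was thus the same by level and by share, though at 400 molecules the Robo3 and Igfbp5 intervals overlapped. Pkd2l1 cells stood above Igfbp5 cells by share as counted, but below them by level and at 400 molecules.

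Hoxc13 was highest in Robo3 cells, and the remaining and Col1a1 cells came next. Its level was 734 CPM (549 to 959) in Robo3 cells, where 31 of 49 cells (63.3%) held it, against 131 CPM (102 to 165) in remaining cells and 117 CPM (85.9 to 155) in Col1a1 cells. It was 53.6 CPM (42.2 to 67.1) in Igfbp5 cells, 44.9 CPM (9.27 to 131) in Tmem212 cells, 30.9 CPM (8.42 to 79.1) in Pkd2l1 cells and 21.9 CPM (5.96 to 56.0) in Krt5 cells. Robo3 cells were 5.62-fold above remaining cells (3.86 to 8.13) and 9.77-fold above all other tail cells (7.09 to 13.3). Remaining cells were 1.58-fold above all other tail cells (1.18 to 2.09), whereas Col1a1 cells could not be told apart from all others (1.33-fold, 0.949 to 1.83). Col1a1 cells were 2.18-fold above Igfbp5 cells (1.48 to 3.18) for Hoxc13, whereas Igfbp5 cells were 13.1-fold above Col1a1 cells (7.42 to 25.4) for Hoxb13. Igfbp5, Tmem212, Pkd2l1 and Krt5 cells, neighbours in the order, each differed from the next by less than counting error. At 400 molecules per cell Hoxc13 was in 26.5% of Robo3 cells, 6.25% of Col1a1 cells (3.16 to 10.9) and 2.02% of Igfbp5 cells (1.28 to 3.01). In Krt5 cells the 4 molecules lay in 3 cells, and none remained after thinning.

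Hoxa13 had its highest levels in the Pkd2l1 and Igfbp5 cells, but counting error did not separate these from Tmem212 or Robo3 cells. Its level was 108 CPM (59.1 to 181) in Pkd2l1 cells from 14 molecules and 71.2 CPM (58.0 to 86.5) in Igfbp5 cells from 101 molecules, a difference within counting error (1.52-fold, 0.802 to 2.67). It was 59.9 CPM (16.3 to 153) in Tmem212 cells, and Igfbp5 cells were 1.19-fold above these (0.450 to 4.45). It was 41.5 CPM (8.56 to 121) in Robo3 cells, 36.8 CPM in remaining cells and 22.4 CPM in Col1a1 cells. From Tmem212 cells down, each differed from the next by less than counting error. Krt5 cells had 0 molecules of Hoxa13, at least 3.52-fold below all other tail cells. Igfbp5 cells were 3.18-fold above Col1a1 cells (1.61 to 7.16). Robo3 cells, the peak of both Hoxb13 and Hoxc13, held 3 Hoxa13 molecules in 2 cells. For Hoxa13 they could not be told apart from all other tail cells (0.765-fold, 0.156 to 2.28).

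Hoxd13 was too sparse to order. Its 23 molecules were 9 in Igfbp5 cells, 5 in Col1a1 cells, 5 in remaining cells and 4 in Pkd2l1 cells. Krt5, Tmem212 and Robo3 cells had 0, but their limits at 3 molecules, 16.4, 44.9 and 41.5 CPM, lie above the 8.16 CPM of the whole tail library, so absence could not be shown at this depth. The 30.9 CPM of Pkd2l1 cells had an interval of 8.42 to 79.1.

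Read against all genes, the Robo3 difference was not common, but other Hox genes shared it. In Robo3 cells Hoxb8 stood at 1273 CPM, Hoxb6 at 1135 CPM and Hoxb3 at 941 CPM, above Hoxb13 at 817 CPM. All other Hox genes stood below Hoxb13 there. Over the whole tail library Hoxb8, Hoxb6 and Hoxb3 stood at 98.0, 77.4 and 117 CPM. Group 13 made up 18.8% of Hox molecules in Robo3 cells and 26.2% in the whole tail library. Of the 3 members with at least 100 tail molecules, 2 (Hoxb13 and Hoxc13) were at least 2-fold higher in Robo3 cells than in all other tail cells, a rule met by 13.6% of 5280 genes. In Col1a1 cells 2 of the 3 (Hoxa13 and Hoxb13) were at least 2-fold lower, a rule met by 24.5% of genes. In Krt5 cells 3 of the 3 were at least 2-fold lower, met by 33.9% of genes. The median over all 5280 genes was itself below 0 in these kinds, at −0.34 on the log2 scale in Col1a1 cells and −0.43 in Krt5 cells. Hoxb13 stood at −3.48 in Col1a1 cells and, taking 0 molecules as 3, at −4.24 in Krt5 cells.

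The background share of these RNAs could not be measured well. The tail held only 15 cells with at least 2 macrophage or endothelial markers, at a median of 1853 molecules, and none held a member, which allows a share of up to 20%. The mix of members also differed between kinds. Hoxc13 made up 47.3% of the summed Hoxb13 and Hoxc13 molecules in Robo3 cells (37.8 to 57.0), 12.1% in Igfbp5 cells (9.64 to 14.9), 12.1% in Pkd2l1 cells (3.40 to 28.2), 32.1% in remaining cells (26.0 to 38.7) and 79.7% in Col1a1 cells (67.2 to 89.0). The 2 genes were therefore not in 1 ratio across the kinds.

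Among the remaining cells, 99 had at least 2 molecules of Dcx, which encodes a microtubule protein of young neurons. This split was chosen after the values were seen. Hoxb13 stood at 425 CPM (323 to 550) in these cells and Hoxc13 at 235 CPM (161 to 331), against 232 CPM (187 to 285) and 98.3 CPM (69.9 to 134) in the 302 remaining cells with fewer than 2 molecules of both Dcx and the keratin gene Krt10. In the 15 remaining cells with exactly 1 Robo3 molecule, Hoxb13 stood at 973 CPM (595 to 1503) and Hoxc13 at 438 CPM (200.3 to 831). Leaving out the Dcx cells among those 15 left 93 cells, with Hoxb13 at 344 CPM (249.9 to 462) and Hoxc13 at 203 CPM (133 to 298). The Hoxb13 interval of the 93 cells overlapped that of the 302 cells, as did the Hoxc13 interval, though only just. Cells with a Robo3 molecule were not taken out of the 302, so the sides were not filtered alike. The 68 Pkd2l1 cells, 83.8% of which held Dcx, had Hoxc13 at only 30.9 CPM.

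Cycling cells and cells with Sox1 RNA were compared in the same way. In 154 tail cells with at least 2 of 4 cell-cycle genes, Hoxb13 stood at 138 CPM (103 to 181), against 312 CPM (290 to 335) in the other 1810. Hoxc13 stood at 39.8 CPM (22.3 to 65.6) against 99.99 CPM (87.8 to 113), and Hoxa13 at 23.9 CPM (10.9 to 45.3) against 58.6 CPM (49.4 to 69.0). At least 2 of the cell-cycle genes were found in 33.3% of Krt5 cells and 13.6% of Col1a1 cells, where Hoxb13 was low, against 5.66% of Igfbp5 cells and no Robo3 cell. The part of this mix in the difference was not tested. In 192 cells with a Sox1 molecule, Hoxb13 stood at 303 CPM (243 to 373) against 287 CPM (267 to 309) without, and Hoxc13 at 112 CPM (77.4 to 158) against 89.6 CPM (78.3 to 102). Hoxa13 stood at 88.6 CPM (57.8 to 130) with Sox1 and 49.9 CPM (41.6 to 59.4) without.

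**Figure D3:**
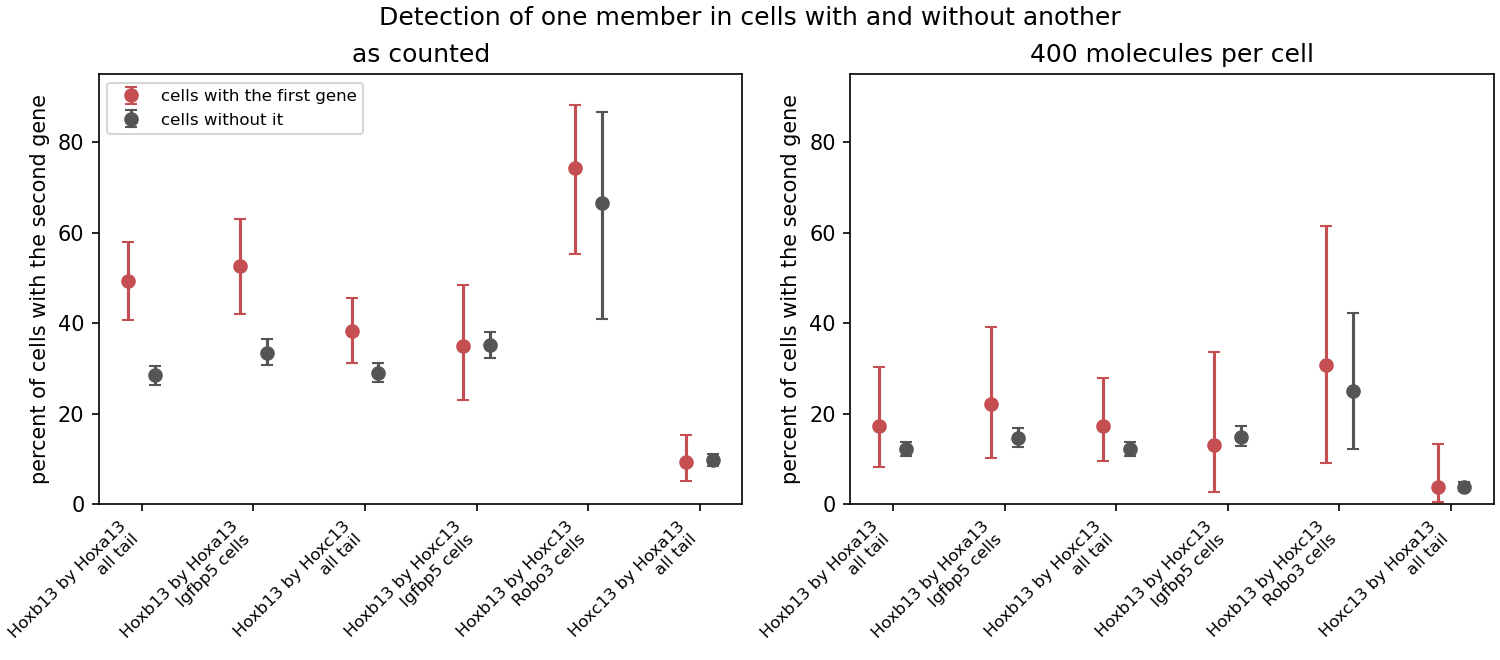
Percent of cells with a second gene among cells with (red) and without (grey) a first gene, in all tail cells or 1 kind, as counted (left) and at 400 molecules per cell (right), with exact Clopper-Pearson 95% intervals. As counted, the intervals do not overlap for Hoxb13 by Hoxa13 in all tail cells and in Igfbp5 cells, and only just for Hoxb13 by Hoxc13 in all tail cells; at 400 molecules all 6 pairs overlap.

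Few cells held 2 members at once. As counted, 1184 tail cells held no member, 631 held 1, 141 held 2, 8 held 3 and none held all 4. Among the 780 cells with a member, 19.1% held 2 or more. At 400 molecules per cell, 24 of 1945 cells held 2 members (1.23%, 0.792 to 1.83) and none held 3. Robo3 cells had the highest share with 2 or more, 23 of 49 as counted (46.9%, 32.5 to 61.7) and 5 of 49 thinned (10.2%, 3.40 to 22.2), against 6.62% (5.25 to 8.22) and 0.966% (0.483 to 1.72) in Igfbp5 cells.

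In the counts as deposited, Hoxb13 was more frequent in cells with Hoxa13 than in cells without. It was in 69 of the 140 cells with Hoxa13 (49.3%, 40.7 to 57.9) and in 28.5% (26.4 to 30.6) of cells without it. Within Igfbp5 cells alone it was in 52.6% (42.1 to 63.0) and 33.5% (30.7 to 36.5). Cells with Hoxa13 were deeper, with a median of 1425.5 molecules against 1270, and at 400 molecules per cell the shares were 17.3% (8.23 to 30.3) and 12.2% (10.8 to 13.8), which overlap. At 1000 molecules per cell, which kept 1387 cells, they were 37.8% (27.3 to 49.2) and 24.5% (22.2 to 26.9), which do not. Within Igfbp5 cells at 1000 molecules they were 40.4% (27.6 to 54.2) and 30.8% (27.3 to 34.5), which overlap. Hoxa13 and Hoxc13 showed no such difference over all tail cells, where Hoxc13 was in 9.29% of cells with Hoxa13 and 9.76% of cells without. Within Igfbp5 cells the shares as counted were 8.42% (3.71 to 15.9) and 4.94% (3.71 to 6.43). Within remaining cells they were 5% (0.127 to 24.9) and 15.1% (11.7 to 19.1). The intervals overlap in both kinds.

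Hoxb13 and Hoxc13 were found together in 73 tail cells, of which 23 were Robo3 cells, 24 remaining cells and 21 Igfbp5 cells. Over all tail cells, Hoxb13 was in 38.2% (31.3 to 45.5) of cells with Hoxc13 and 29.0% (26.9 to 31.2) of cells without, and these intervals only just missed each other. Within Igfbp5 cells the shares were 35% (23.1 to 48.4) and 35.1% (32.3 to 38.0). Within Robo3 cells they were 74.2% (55.4 to 88.1) and 66.7% (41.0 to 86.7), which overlap widely. Within remaining cells, which held cells with and without Dcx, they were 40.7% (28.1 to 54.3) and 23.2% (18.8 to 28.0). At 400 molecules per cell the shares over all tail cells were 17.3% (9.57 to 27.8) and 12.1% (10.7 to 13.7), and at 1000 molecules 29.4% (21.02 to 38.8) and 24.96% (22.6 to 27.4), which overlap at both depths. Hoxd13 shared 6 cells with Hoxb13, 2 with Hoxa13 and 2 with Hoxc13.

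**Figure D4:**
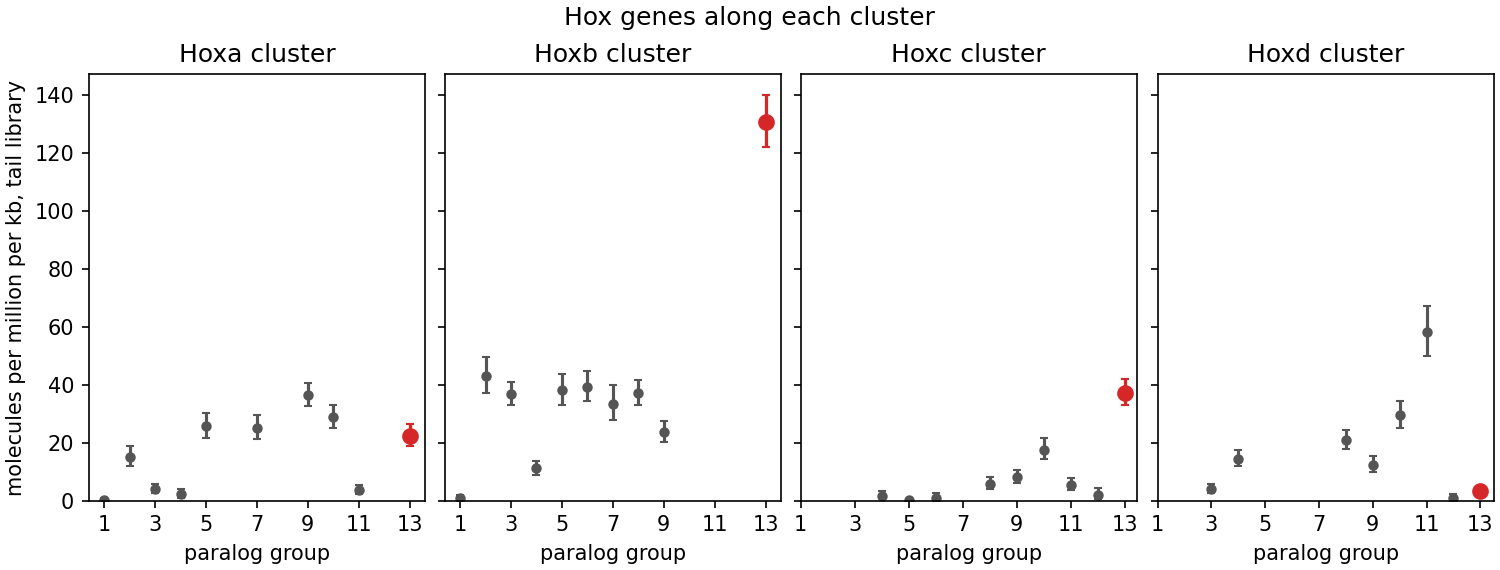
Level of each Hox gene in kept tail cells, in CPM per kb of its longest coding transcript, by paralog group in each cluster, with exact Poisson 95% intervals; group 13 in red. Hoxb13 and Hoxc13 stand above the other genes of their clusters, and Hoxd13 lies below all of groups 8 to 11.

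The place of group 13 within the Hox clusters differed by cluster. The assay captures RNA at transcript ends, so a count need not grow with length, and ranks by plain CPM are given beside those per kb. Per kb of transcript, Hoxb13 had the highest level of all 37 Hox genes in the tail, 131 CPM per kb (122 to 140), and the next in its cluster, Hoxb2, had 43.2 (37.4 to 49.6). By plain CPM Hoxb13 was again the highest of the 37, and Hoxb3 came next in its cluster, at 117 CPM. Hoxc13, at 37.4 CPM per kb (32.9 to 42.2), led its cluster and held 52.3% of the cluster's molecules, with Hoxc10 next at 17.7 (14.3 to 21.6). Hoxa13 was 5 of 10 in rank in its cluster at 22.5 CPM per kb (19.1 to 26.4), below Hoxa9 at 36.6 (32.8 to 40.8). By plain CPM it was 3 of 10, at 54.0 CPM, above Hoxa7 at 50.8 CPM and Hoxa5 at 48.3 CPM, with overlapping intervals. Hoxd13, at 3.29 CPM per kb (2.08 to 4.93), was 7 of 8 in rank, and Hoxd11 led that cluster at 58.2 (50.01 to 67.2). Hoxc13 and Hoxd13 kept their cluster ranks by plain CPM. Group 12 was nearly silent in both clusters that have it, with 6 molecules of Hoxc12 and 8 of Hoxd12.

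**Figure D5:**
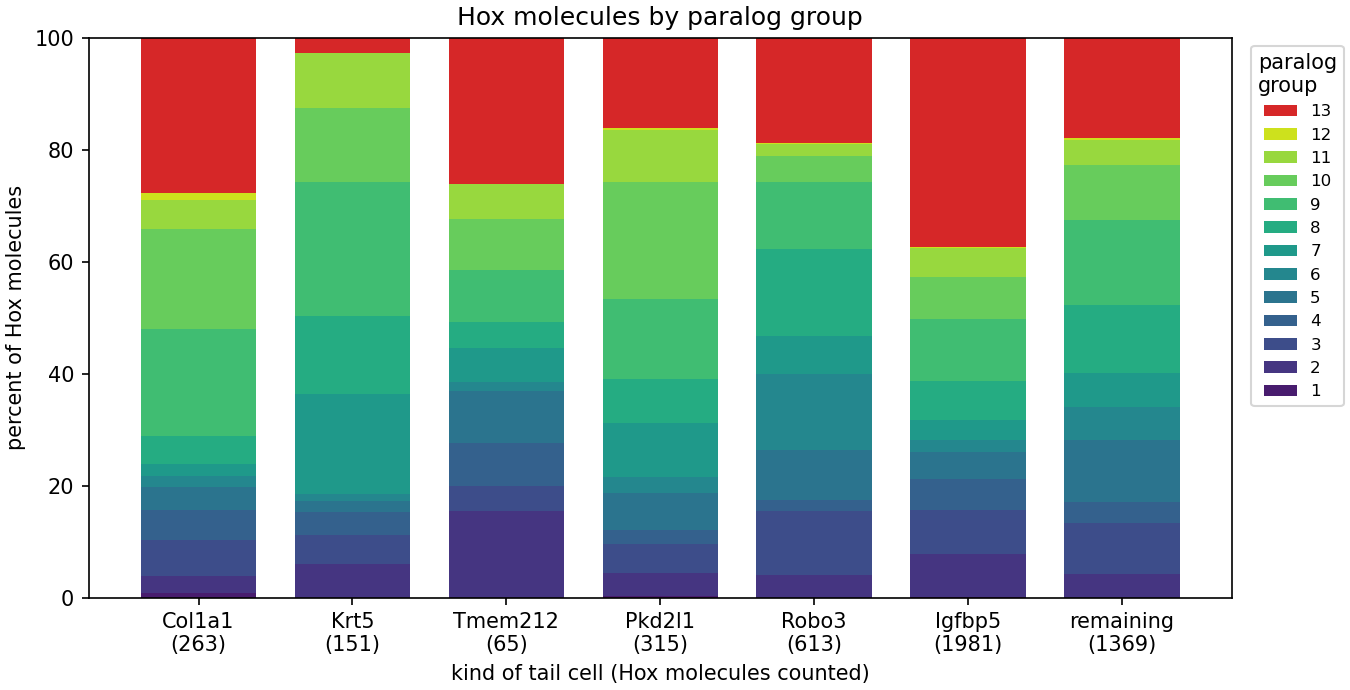
Percent of Hox molecules that came from each paralog group (stacked bars, group 13 in red at the top) in each kind of tail cell, with the number of Hox molecules in brackets. Group 13 ranged from 2.65% in Krt5 cells to 37.3% in Igfbp5 cells.

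As a share of all Hox molecules, which does not depend on the total depth of a kind, group 13 held 1248 of 4761 tail molecules (26.2%, 25.0 to 27.5). The share was 37.3% (35.2 to 39.5) in Igfbp5 cells, 27.8% (22.4 to 33.6) in Col1a1 cells, 26.2% (16.0 to 38.5) in Tmem212 cells, 18.8% (15.7 to 22.1) in Robo3 cells, 18.0% (16.0 to 20.1) in remaining cells and 16.2% (12.3 to 20.7) in Pkd2l1 cells. In Krt5 cells it was 2.65% (0.726 to 6.64), 4 of 151 molecules, although those cells carried other Hox RNAs, with 23.8% from group 9 and 17.9% from group 7. Robo3 cells, with the highest group 13 level, thus did not have the highest group 13 share, since 15.5% of their 613 Hox molecules came from group 8 and 13.5% from group 6. The leading member differed between kinds. Hoxb13 alone was 27.9% of Hox molecules in Igfbp5 cells (25.9 to 29.9), whereas Hoxc13 alone was 17.9% in Col1a1 cells (13.4 to 23.0).

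Of the other posterior Hox genes, groups 9 to 12, 8 of 12 had at least 50 molecules over both libraries. All 8 were at least 4-fold higher in the tail, against 8.41% of all genes. They passed the minimum through the tail, with at most 2 brain molecules each, so this call followed from the filter. Those left out had fewer tail molecules. The median of the 8 was 7.17 on the log2 scale with 0 molecules taken as 3, against 0.28 over all 11360 genes. Hoxa9 had a tail level of 118 CPM and no brain molecule, at least 253-fold higher. Hoxd10 had 1 brain molecule and Hoxd11 had 2. Among the TALE homeodomain cofactors that bind DNA with Hox proteins, 1 of 7 was at least 4-fold higher in the tail and none lower, against 8.41% of all genes higher, so this count is near the background. That gene, Pbx4, stood at 21.3 CPM in tail cells against 3.11 CPM in brain cells, 6.84-fold (4.07 to 11.98). Meis2 stood at 512 CPM in tail cells and 526 CPM in brain cells, 0.972-fold (0.913 to 1.03). In the tail Meis2 was highest in Pkd2l1 cells, at 1962 CPM.

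Most genes that drive growth of the embryonic tail end had few or no molecules. Of 13 axial extension genes, 9 occurred in the files and 1 had at least 50 molecules. That one was Gdf11, a ligand that times the switch from trunk to tail, at 19.2 CPM in tail cells and 20.5 CPM in brain cells (0.933-fold, 0.667 to 1.29). Cdx1, of the caudal family, had 4 tail molecules, T (brachyury) 2, Wnt3a 3 and the retinoic acid hydroxylase gene Cyp26a1 11. Of 3 genes described as group 13 targets, Bmp2 (18.1 CPM in the tail, 58.1-fold, 15.3 to 493) and Epha7 (39.8 CPM, 8.51-fold, 5.65 to 13.2) were at least 4-fold higher in the tail, again beside 8.41% of all genes. Bmp7 was not (37.3 and 44.2 CPM). Bmp2 reached 50 molecules only through the tail, with 51 there and 2 in the brain, so its call followed from that minimum. Bmp2 and Bmp7 were both highest in Krt5 cells, at 120 and 213 CPM, where group 13 RNA was lowest.

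Within 100 kb of the 4 starts, 61 genes that are not Hox genes are annotated and 17 occurred in the files. Of the 4 with at least 50 molecules, 3 were at least 4-fold higher in the tail, against 8.41% of all genes: Ttll6, Gm11535 and Hoxb5os, all in the window of Hoxb13. These 3 passed the minimum through the tail, and Gm11535 and Hoxb5os had 0 brain molecules, so this count largely follows from the filter. Ttll6, which encodes an enzyme that adds glutamate to tubulin in cilia, stood at 76.3 CPM in tail cells against 1.87 CPM in brain cells (40.9-fold, 22.9 to 80.3). Unlike Hoxb13, it had 0 molecules in Robo3 and Pkd2l1 cells and was highest in Tmem212 cells, at 225 CPM, then Igfbp5 cells, at 109 CPM. Lnpk, near Hoxd13, stood at 20.6 CPM in tail cells and 27.6 CPM in brain cells (0.747-fold, 0.546 to 1.011). The long non-coding RNAs Hottip and Hotair fell short of 50 molecules and had none in the brain. Hottip, transcribed beside Hoxa13, had 29 tail molecules, and Hotair, of the Hoxc cluster, had 43. Whether reads of overlapping antisense genes were separated by strand is not given in the sources used here.

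Over the 7 groups of tail cells (the 6 kinds and the remaining cells), the profiles of Hoxb13 and Hoxc13 had a Pearson r of 0.866, those of Hoxa13 and Hoxb13 of 0.241 and those of Hoxa13 and Hoxc13 of −0.135. Hoxd13 was too sparse for such a comparison. These 7 points come from 1 library, and Robo3 cells weigh heavily in the first value. They also weigh heavily in the Hoxc13 values below, since Hoxc13 stood at 734 CPM there and 131 CPM or less elsewhere. Naming only the 5 highest of many genes also favours high values of r. Among 5280 genes with at least 100 tail molecules, those closest to Hoxc13 were Zic1 (r = 0.998), Ebf2 (0.997), Cacna2d1 (0.997), Nxph4 (0.994) and Grpel2 (0.993). Zic1 and Ebf2 encode transcription factors. Zic1 stood at 886 CPM in Robo3 cells, 54.7 CPM in Col1a1 cells and 19.0 CPM in Igfbp5 cells. Those closest to Hoxb13 were Rhbdd2 (r = 0.992), Crtac1 (0.989), Ppp2r3a (0.988), Cdc42se2 (0.986) and Mkln1 (0.979). Crtac1, at 429 CPM in Robo3 cells, 153 CPM in Igfbp5 cells and 7.46 CPM in Col1a1 cells, also had 0 molecules in Krt5 cells. Those closest to Hoxa13 were Sike1 (r = 0.977), Rhou (0.973), Cacna1h (0.955), Zfp608 (0.954) and Fam181b (0.954).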

How the data were processed

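Single Sox1-GFP+ cells of 1 tail and 1 brain library were profiled. The deposited counts list, for each cell and gene, reads and molecules before and after correction of identifier errors. The authors' headers name BD Rhapsody WTA Analysis Pipeline 1.10.1 on GRCm38 with GENCODE vM19. The submitters' processing notes also name UMI-tools 1.0.1, STAR 2.7.1a and featureCounts 1.6.4. Corrected molecules were used. Groups follow the tissue in the labels.

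Cells were filtered as stated in the study's methods. The members, lists and rules were chosen with earlier results of these data known. The genes named are the 4 members, Hox groups 9 to 12, cofactors, axial extension genes, described targets, neighbours within 100 kb, and per member the 5 most alike in profile. Those of Hoxd13 are left out, since 3 of its 7 values are 0. Other genes are named as markers. The values of 1 cofactor are not reported here. With 1 library per group nothing was tested. Intervals are exact Poisson for levels, Clopper-Pearson for shares and conditional binomial for ratios, at 95%. They cover counting error only. A count of 0 was taken to allow 3 molecules over the library or kind. Folds given as at least a value set those 3 molecules against the other side's measured level, so they are not 95% limits.

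Scrublet (scanpy 1.11.5, expected rate 0.05) called 5 tail cells (0.255%) and 76 brain cells (0.951%) doublets. They were kept, and leaving them out was an alternative. Other alternatives used uncorrected molecules, under 20% mitochondrial molecules, no cell filter, other totals, other kind cuts, other thinning depths and scaling by TMM (edgeR 4.0.16) or median ratios. Transcript sequences and positions are from GENCODE vM21 (GRCm38). The homeobox was located by translating the longest coding transcript. The scripts were tested on simulated data. Python 3.11.15, scipy 1.17.1 and R 4.3.3 were used.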

Additional observations from a re-analysis of the deposited data

Results flagged for a closer look

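Group 13 RNA was also present in tail barcodes that did not pass the cell filter. Among the comparisons, such barcodes entered only the levels recomputed with no cell filter. These 505 tail barcodes held 8 group 13 molecules in 7 barcodes, a level of 51.4 CPM (22.2 to 101). That is below the 443 CPM (419 to 468) of kept tail cells. The 4123 brain barcodes outside the filter held 0, which allows up to 2.89 CPM. The difference was not tested, since each tissue is 1 library.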

How the results depend on the processing

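Of 106 recomputed values of the main results, 97 stayed within the counting interval of the reported value, or within 1.5 times for the share of all genes. The summed tail level of 443 CPM became 488 CPM as a mean over cells and 508 CPM with mitochondrial molecules left out of the total, which also moved Igfbp5 cells from 521 to 606 CPM. The share of tail cells with a member, 17.8% at 400 molecules, became 34.7% at 1000 and 39.7% unthinned, and the share with 2 or more members, 1.23%, became 4.76% and 7.59%. The share of genes at least 4-fold higher in the tail, 8.41%, became 12.7% at a minimum of 10 molecules and 5.09% at 200. TMM and median-ratio scaling lowered every tail over brain value by 0.39 and 0.37 on the log2 scale and left 3 of 3 members with enough molecules above 4-fold. Hoxb13 and Hoxc13 stayed highest in Robo3 cells under all 8 alternatives tried for the kinds. Thinning at random left few cells with 2 members: the excess of Hoxb13 in cells with Hoxa13, 5.10 percentage points, ranged from 4.05 to 20.8 over the alternatives, and that of Hoxb13 in cells with Hoxc13, 5.19 points, was 0.737 with uncorrected molecules. Neighbours in the order of the kinds that counting error did not separate could change places: Hoxc13 in Tmem212 cells, 44.9 CPM against 53.6 in Igfbp5 cells, was 82.1 against 52.2 at a cut of 3 molecules, and Hoxa13 in Tmem212 cells, 59.9 CPM against 41.5 in Robo3 cells, was 32.0 against 44.0 at a cut of 1. Hoxd13 in Robo3 cells went from 0 to 15.7 CPM by marker lists. No paired analysis was possible because each group has 1 library, and for the same reason no replicate could be left out. Depth limits Hoxd13 most, with 23 tail molecules.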
